A study of Tupaia belangeri with 6 samples.

Results

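The potassium channel genes of the tree shrew hippocampus were taken as all features whose name starts with KCN, followed by letters and a closing number. KCNJ10 was left out, as were genes with fewer than 50 unique molecular identifiers (UMIs, single captured RNA molecules) over all nuclei of the 6 libraries. The name pattern matched 90 features and 64 genes remained, of 83605 features in all. Of the other features, 25 lay under the minimum, and 14 of those were listed at 0 in every library, among them KCNA1, KCNAB1, KCNN3, KCNJ6 and KCND1. The members were therefore chosen by their summed UMIs, and these sums are a description only. The sums reached from 62 UMIs for KCNU1 and 84 for KCNK6, just inside the minimum, to 280353 for KCND2. Just outside it lay KCNA5 with 33 UMIs and KCNK5 with 30. No sequences are shown for these genes.

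Potassium channels let potassium ions leave or enter a cell along their gradient, and so set the resting potential, end action potentials and limit how fast a neuron can fire. Voltage-gated (Kv) channels open on depolarization, inward rectifiers (KCNJ) and two-pore domain leak channels (KCNK) hold the membrane near rest, and other families open on calcium (KCNM, KCNN) or sodium (KCNT). Many pore subunits work with partners, such as the KChIP proteins (KCNIP) and the Kv beta subunits (KCNAB), which change their gating or bring them to the membrane. In the hippocampus, A-type currents in pyramidal cell dendrites, the M current carried by Kv7 channels, and the Kv3 channels of fast-spiking interneurons are textbook examples, and glial inward rectifiers are known for taking up potassium released by active neurons.

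Single-nucleus RNA was measured in the hippocampus of aging tree shrews (Tupaia belangeri), with 3 libraries from animals with Alzheimer's-like pathology (ALP, titled AD) and 3 from control animals (titled Normal). The study names no transgene and no treatment to induce disease: ALP arose with natural aging and was picked by slow performance in a pipeline maze. Its methods describe tissue collection following imaging under isoflurane. The study describes the controls as age-matched, while the age and sex behind each library are not in the labels. Each library was taken as 1 animal, and p-values measure the spread between these libraries only.

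The libraries held 3011 to 8785 barcodes and 19182981 to 35898940 UMIs. After the study's limits on genes and mitochondrial UMIs, 28233 nuclei were kept. Control 2 stood apart, with the fewest barcodes (3011) and 1614 kept nuclei, and 46.4% of its barcodes exceeded the upper limit on genes, against 16.0% to 27.7% in the other libraries. Any pair of libraries shared at most 0.465% of the smaller library's barcodes. A single long noncoding feature took 14.9% to 20.6% of the UMIs of control libraries and 22.8% to 29.0% of ALP libraries. Nuclei were clustered without any KCN-named feature, and clusters were named from marker genes as granule-cell-like (Gran-like, 2718 nuclei), non-granule excitatory (2892), interneuron-like (InN-like, 2438), Astro-like (3223), Oligo-like (8365), OPC-like (2717, oligodendrocyte precursors), Micro-like (1615), Endo-like (496), Ependymal-like (172) and mural and fibroblast-like (104), with 3493 nuclei unnamed. Some defining markers were listed at 0 in their own class: GAD2 and SLC32A1 in InN-like nuclei, MOBP in Oligo-like nuclei, NRGN in excitatory nuclei, ABCB1 in Endo-like nuclei, TMEM212 in Ependymal-like nuclei, and ACTA2 and CEMIP in the mural and fibroblast-like class. Of the 7 mural and fibroblast markers with UMIs, only COL1A2, DCN and LUM were highest in the class named after them. PDGFRB, RGS5 and TAGLN were raised there but highest in another class, and RGS5 was a leading gene of the Endo-like cluster. Control 2 gave only 66 Gran-like, 46 Micro-like, 172 Oligo-like and 42 Endo-like nuclei.

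Together the 64 genes held 1315982 UMIs, or 0.832% of all, and 0.727% to 0.977% in single libraries. Of these UMIs 32.6% lay in kept nuclei, against 39.6% of all UMIs. Their share of a class's UMIs was highest in neurons, with a mean over 6 libraries of 1.24% in Gran-like and 1.00% in non-granule excitatory nuclei. OPC-like nuclei followed at 0.827% and InN-like nuclei at 0.752%. Micro-like nuclei had 0.436%, whereas Oligo-like, Astro-like, Endo-like and Ependymal-like nuclei lay between 0.160% and 0.200%. OPC-like nuclei thus held a summed share like that of interneurons, and Oligo-like nuclei the low share of astrocytes. Abundant members such as KCND2 weigh most in these sums, so a similar share need not mean similar members.

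Levels are given as CPM (UMIs of a gene per 1000000 UMIs of a class), per library or as mean ± SD (n = 6 libraries). Long genes give more nuclear UMIs and no gene lengths were at hand, so levels are compared between classes for 1 gene and not between genes. Summed counts also cannot tell fewer transcripts per nucleus from fewer nuclei of a kind within a class. Of 10 classes, Gran-like nuclei held the highest mean level of 19 of the 64 genes and non-granule excitatory nuclei that of 10. Ependymal-like nuclei led for 8, OPC-like for 6, InN-like, Micro-like and Endo-like for 5 each, mural and fibroblast-like for 4 and Oligo-like for 2. Astro-like nuclei led for none, although KCNN2, an SK channel opened by calcium, reached 261 ± 31.1 CPM there against 262 ± 38.4 in non-granule excitatory nuclei. A neuronal class was highest for 53.1% of the genes, against 25.8% of 31044 features compared in this way. For 10 genes all 6 libraries of the leading class lay above all 6 of the next one by mean, against 7.00% of the same 31044 features: KCNC2, KCNQ3, KCNT2, KCNH1, KCNS3, KCNQ1, KCNC1, KCNA6, KCNK1 and KCNA4. The leading class of the 5 Endo-like and 8 Ependymal-like genes rests on few UMIs and its libraries overlapped those of the next class in every case.

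**Figure D1:**
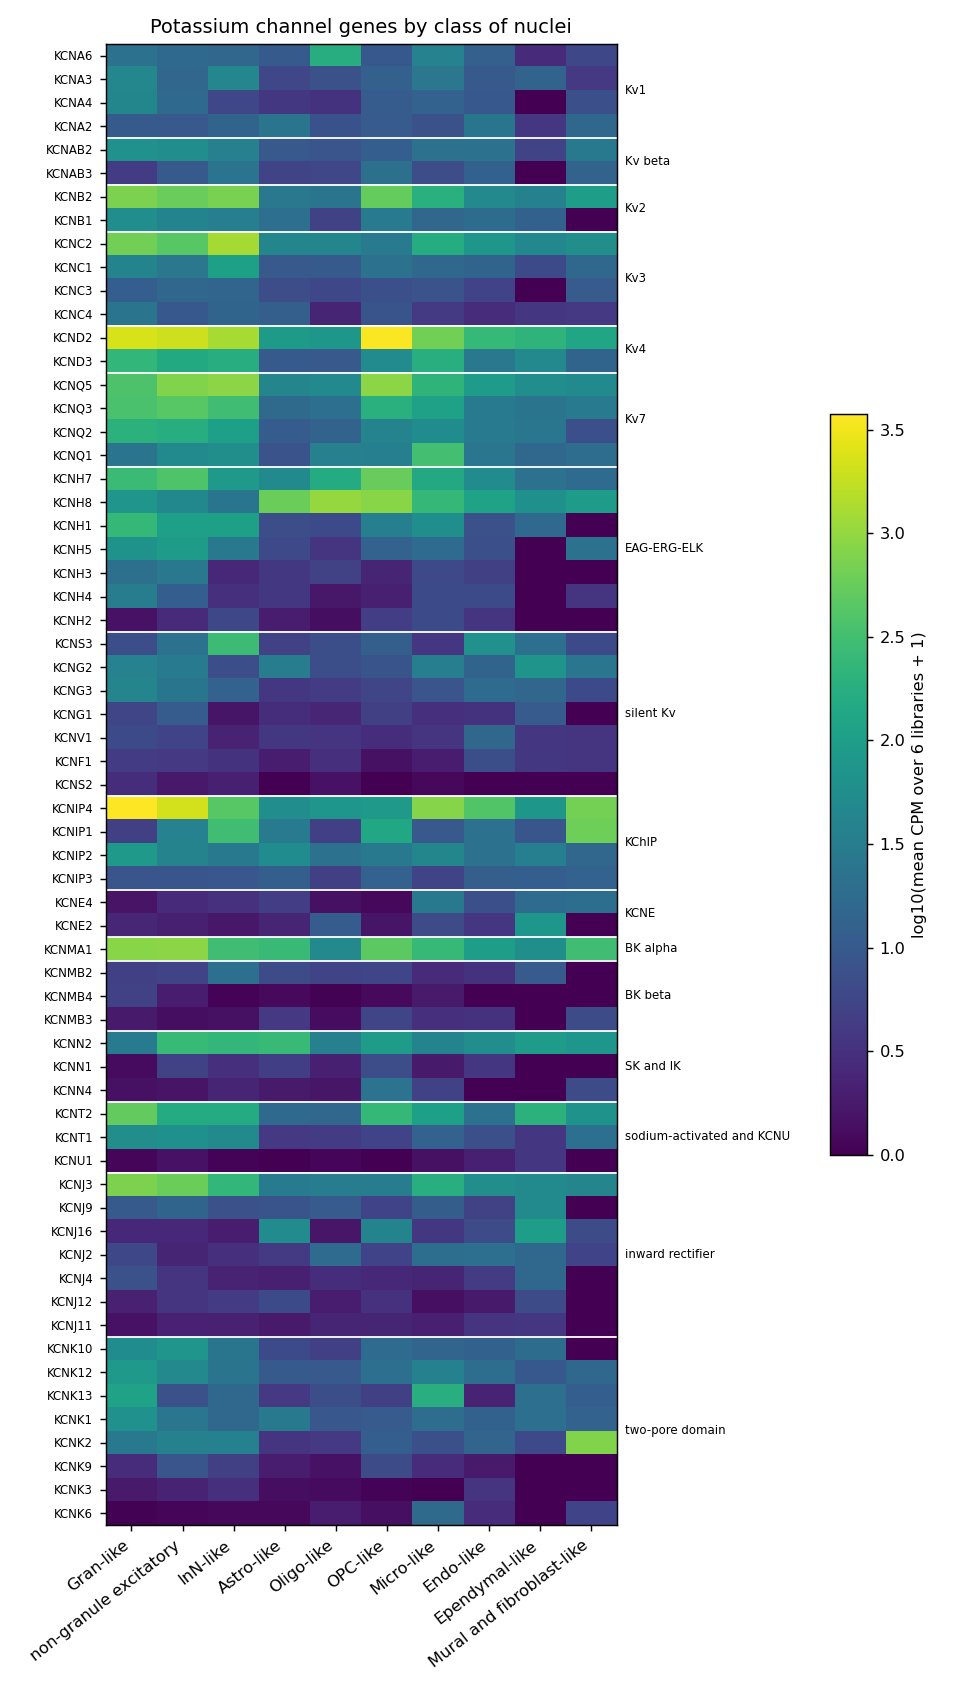
Colour gives log10(mean CPM over 6 libraries + 1) of the potassium channel genes (vertical axis, grouped by family, 1 of the 64 not drawn) in 10 classes of nuclei (horizontal axis). KCND2 was brightest in OPC-like nuclei (3596 CPM), KCNIP4 in Gran-like nuclei (3748 CPM), and KCNK2 stood out in the mural and fibroblast-like class (790 CPM).

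Among the A-type channels, KCND2, the pore subunit of the dendritic A-type current, was highest in OPC-like nuclei. Its level there was 4903, 3375 and 3164 CPM in the control libraries and 3331, 3532 and 3273 in the ALP libraries, against 3480, 1831, 1874, 2188, 2195 and 2225 CPM in Gran-like nuclei of the same libraries. OPC-like nuclei were higher in all 6 libraries, while the ranges overlapped through control 1. Its partner KCNIP4, a calcium-binding KChIP, followed another order, with 3748 ± 346 CPM in Gran-like and 2139 ± 1415 CPM in non-granule excitatory nuclei but only 82.7 CPM in OPC-like nuclei. In non-granule excitatory nuclei KCNIP4 was 4952 CPM in control 1 and 1213 to 2015 CPM in the other 5 libraries. KCNA4, an A-type subunit of the Kv1 family, was led by Gran-like nuclei with 43.1 ± 15.1 CPM, against 15.4 ± 2.76 CPM in non-granule excitatory nuclei.

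Kv3 subunits, which allow fast repolarization, were led by interneurons for their most abundant members. KCNC2 had 1501, 984 and 1262 CPM in InN-like nuclei of the control libraries and 1172, 1423 and 1044 CPM in ALP libraries, all above the 539 to 829 CPM of Gran-like nuclei. KCNC1 was 105 ± 9.40 CPM in InN-like nuclei, with 87.9 CPM in the lowest library, against 40.5 ± 7.91 CPM in Gran-like nuclei. The electrically silent subunit KCNS3, which forms no channel alone and modifies Kv2 channels, was also led by InN-like nuclei with 308, 184, 254, 322, 253 and 371 CPM, against 63.9 ± 39.3 CPM in Endo-like nuclei as the next class. Its Kv2 partner KCNB2 did not share that order: Gran-like (741 ± 149 CPM) and InN-like nuclei (706 ± 238 CPM) did not differ beyond their spread.

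The Kv7 family divided between neurons, precursors and microglia. KCNQ5, an M-current subunit, had 907 ± 103 CPM in OPC-like and 902 ± 330 CPM in InN-like nuclei, which did not differ beyond their spread. KCNQ3, the other abundant M-current subunit, was led by non-granule excitatory nuclei at 446 ± 58.1 CPM, above 352 ± 17.5 CPM in Gran-like nuclei. KCNQ1, better known as the slow delayed rectifier of heart and epithelia, was led by Micro-like nuclei with 539, 272 and 399 CPM in control and 248, 246 and 228 CPM in ALP libraries. The next class, InN-like, had 30.8 to 90.2 CPM, so that the 2 classes did not overlap. The features list holds several antisense features named after KCNQ1, KCNQ5, KCNIP3 and KCNIP4. It also holds KCNA6-AS-1, named after KCNA6 and among the leading features of a cluster of Oligo-like nuclei. Strand use in counting is not given in the sources used here, so it is not known how far sense and antisense reads of these genes were counted apart.

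Glial and vascular classes other than Astro-like nuclei each had the highest mean of some members. Only KCNA6 in Oligo-like and KCNQ1 in Micro-like nuclei led without overlap with the next class. In Oligo-like nuclei KCNA6, a Kv1 delayed rectifier, was 268, 131, 169, 116, 183 and 136 CPM, above the 13.4 to 56.8 CPM of Micro-like nuclei. KCNH8, an ELK channel, was 1005 ± 249 CPM in Oligo-like and 868 ± 77.0 CPM in OPC-like nuclei, and these overlapped. In OPC-like nuclei KCNN4, a calcium-activated channel of intermediate conductance, was 21.8 ± 11.0 CPM from 111 UMIs. KCNK13, a leak channel known from microglia, was 288, 77.9, 241, 144, 182 and 120 CPM in Micro-like nuclei, and Gran-like nuclei of the same libraries had 89.7 to 143 CPM. KCNK13 was thus higher in Micro-like than in Gran-like nuclei in all libraries except control 2, which had 46 Micro-like nuclei. KCNK2, a mechanosensitive leak channel, reached 541, 590, 390, 2637, 0 and 580 CPM in the mural and fibroblast-like class, where each library gave 10 to 30 nuclei. KCNIP1 was 608 ± 478 CPM in the same class, and InN-like nuclei followed with 296 ± 68.0 CPM.

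Few UMIs lie behind the leading members of the smallest classes. KCNE2, a single-span partner known from epithelia, was 74.2 ± 75.2 CPM in Ependymal-like nuclei from 29 UMIs, and KCNJ9, an inward rectifier gated by G proteins, was 48.3 ± 40.0 CPM from 14 UMIs. In Endo-like nuclei the silent subunits KCNV1 (14.1 ± 8.01 CPM, 7 UMIs) and KCNF1 (6.25 ± 8.66 CPM, 4 UMIs) led on counts too low to order the classes. In non-granule excitatory nuclei KCNH5, an EAG channel, was 92.1 ± 40.1 CPM and KCNK9, an acid-sensitive leak channel, 7.72 ± 3.22 CPM, and both overlapped with the next class. KCNH4, an ELK channel, was 31.2 ± 15.1 CPM in Gran-like nuclei with control 2 the highest at 60.5 CPM.

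The remaining families are described by their most abundant member. KCNMA1, the pore of the BK channel opened by calcium and voltage, had 908 ± 103 CPM in non-granule excitatory and 876 ± 52.4 CPM in Gran-like nuclei, which did not differ beyond their spread, and 258 ± 37.5 CPM in Astro-like nuclei. Its partner KCNMB2, a beta subunit that inactivates BK channels, was highest in InN-like nuclei at 19.3 ± 6.32 CPM. KCNT2, a sodium-activated channel, was 512 ± 122 CPM in Gran-like and 240 ± 36.6 CPM in OPC-like nuclei. KCNJ3, an inward rectifier gated by G proteins, was 749 ± 123 CPM in Gran-like nuclei and higher there than in non-granule excitatory nuclei (589 ± 87.3 CPM) in all 6 libraries. KCNK10, a leak channel of the TREK family, was 72.7 ± 21.6 CPM in non-granule excitatory nuclei, KCNAB2 was 63.3 ± 14.2 CPM in Gran-like nuclei, and KCNE4 was 26.9 ± 10.7 CPM in Micro-like nuclei. Each of these last 3 overlapped with its next class.

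Neurons were then tested against glia, with the UMIs of 3 neuronal and of 4 glial classes summed in each library. Since both sums came from the same animals, library was a block in edgeR's quasi-likelihood test, and a gene was called at a Benjamini-Hochberg adjusted p under 0.05 over all genes and a log2 fold change beyond 1. Of the 64 genes, 55 passed the filter on low counts, and 35 of these were higher in neurons (63.6%, against 19.6% of 17606 genes tested). A further 7 were higher in glia (12.7%, against 17.0%). The median log2 fold change was 1.42 for the 55 genes and 0.01 for all genes tested. Every tested Kv2, Kv3 and Kv4 subunit was higher in neurons than in the glial sum (2 of 2, 4 of 4 and 2 of 2). So were 5 of 6 leak channels and both tested sodium-activated channels. Oligo-like nuclei were the most numerous in the glial sum (8365 nuclei), so it need not hold for each glial class. The Kv4 subunit KCND2 was 3596 ± 651 CPM in OPC-like nuclei, against 1867 ± 497 CPM in summed neurons. Both KCNE partners were higher in glia, and the inward rectifiers divided, with 2 of 6 higher on each side.

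The largest differences toward neurons were those of KCNS3, KCNC2 and KCNT1. KCNS3 ranged from 78.5 to 141 CPM (median 112) in neurons and from 2.72 to 11.2 CPM (median 5.90) in glia, a log2 fold change of 4.30 (SE 0.17, edgeR adjusted p = 1.1e-09). KCNC2 ranged from 571 to 999 CPM in neurons and from 43.7 to 67.3 CPM in glia (4.05, SE 0.12, adjusted p = 1.8e-10). KCNT1, a sodium-activated channel, ranged from 40.7 to 75.3 CPM against 2.17 to 5.68 CPM (3.91, SE 0.14, adjusted p = 5.3e-10). For all 3 genes the lowest neuronal value lay above the highest glial value.

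Toward glia, the largest differences were those of KCNJ16, KCNH8 and KCNE2. KCNJ16, an inward rectifier that forms channels together with other KCNJ subunits, had 0.445 to 1.84 CPM in neurons and 8.02 to 32.9 CPM in glia (log2 fold change -4.44, SE 0.21, edgeR adjusted p = 4.3e-09). KCNH8 had 16.5 to 71.4 CPM in neurons and 535 to 972 CPM in glia (-4.29, SE 0.16, adjusted p = 7.5e-10). KCNE2 had 0.503 to 1.38 CPM in neurons and 2.63 to 9.05 CPM in glia (-2.56, SE 0.38, adjusted p = 7.6e-05). These groups did not overlap either. Neuronal transcripts were also found in glial sums: the summed level of 6 of the 8 listed ones with UMIs (SNAP25, SYT1, SLC17A7, CAMK2A, GAD1 and STMN2, while GAD2 and NRGN were at 0 throughout) was 6.43% to 7.48% of the non-granule excitatory level in Astro-like, OPC-like and Oligo-like nuclei, and 27.0% in Micro-like nuclei. Their part in the glial levels was not tested.

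**Figure D2:**
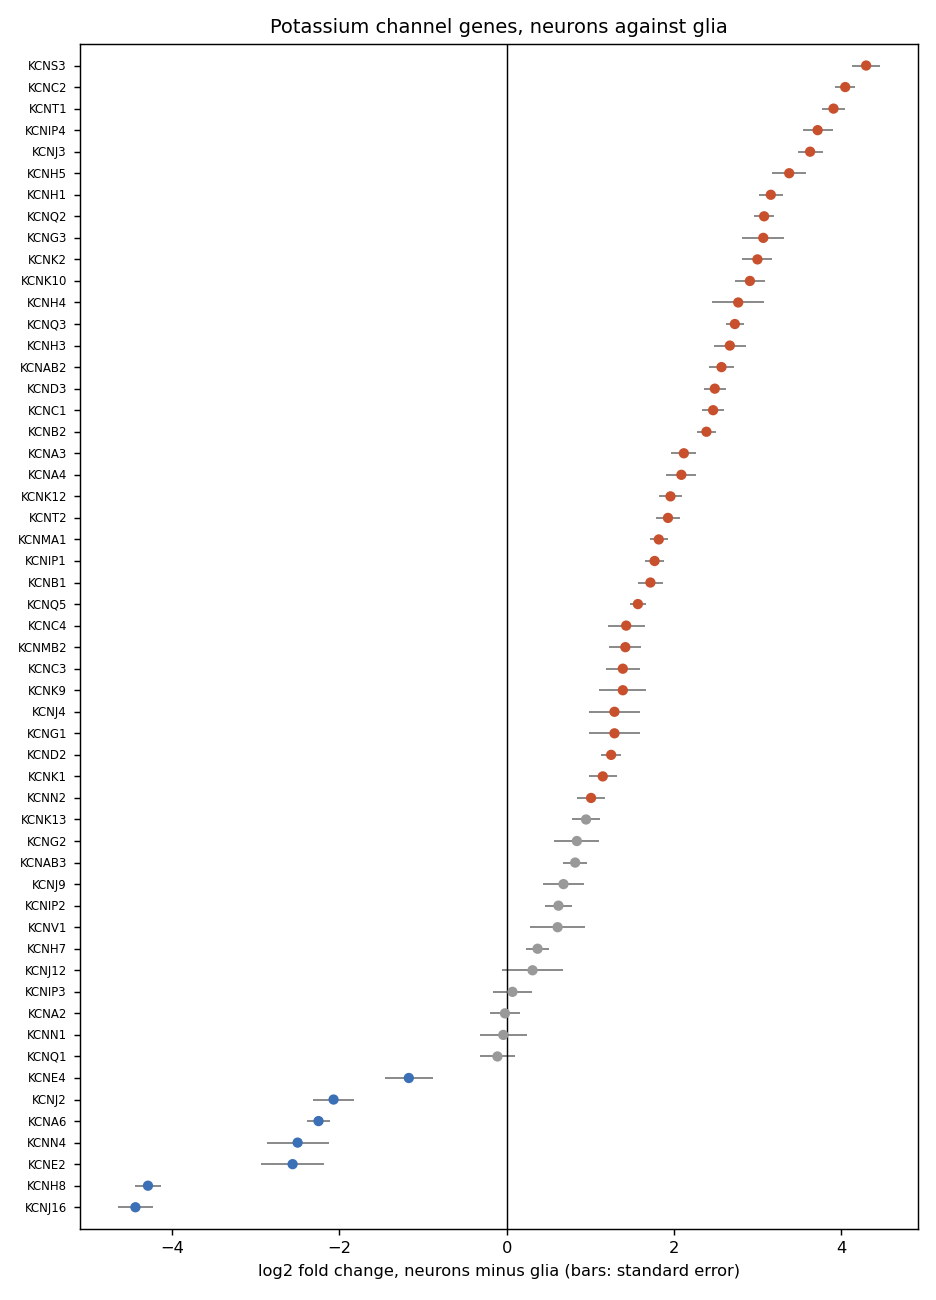
Points give the log2 fold change between neurons and glia for the 55 tested genes (1 that was not called is not drawn), bars the standard error, red the 35 genes called higher in neurons, blue the 7 called higher in glia and grey those not called. KCNS3 lay highest at 4.30 and KCNJ16 lowest at -4.44.

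A list of 23 genes that work beside these channels (auxiliary subunits, pacemaker channels, anchoring proteins, the sodium pump and chloride transporters) was followed in the same tests, and 2 of them were listed at 0. Of 18 tested between neurons and glia, 7 were higher in neurons and 4 in glia. Among the 7 were CNTNAP2, which gathers Kv1 channels beside the nodes of axons, the pacemaker channel HCN3, SLC12A5, a potassium-chloride cotransporter, DPP10 and AMIGO1, which bind Kv4 and Kv2 channels, and ADAM22. Among the 4 were ABCC9, a sulfonylurea receptor, and SLC12A2, a chloride importer.

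Interneurons were compared with excitatory nuclei in the same way. Of 45 genes tested, 7 were higher in InN-like nuclei (15.6%, against 7.98% of 12438 genes) and 15 in excitatory nuclei (33.3%, against 9.33%), with a median of -0.43 against 0.02 for all genes. Of the 6 EAG, ERG and ELK channels 5 were higher in excitatory nuclei, as were 4 of 6 leak channels, whereas 2 of 4 Kv3 subunits were higher in InN-like nuclei. None of 16 partner genes tested was called in either direction by edgeR.

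KCNS3 and KCNIP1 showed large differences toward interneurons. KCNS3 had 184 to 371 CPM in InN-like and 2.36 to 27.9 CPM in excitatory nuclei (4.28, SE 0.22, edgeR adjusted p = 1.1e-08). KCNIP1 had 212 to 376 CPM against 11.0 to 37.7 CPM (3.71, SE 0.16, adjusted p = 2.8e-09). KChIP members moved apart, since KCNIP4 lay the other way with 297 to 620 CPM in InN-like and 1777 to 4574 CPM in excitatory nuclei (-2.51, SE 0.16, adjusted p = 5.8e-08). KCNH3 and KCNH4, both ELK channels, also lay toward excitatory nuclei, with 0.474 to 3.01 against 15.4 to 34.9 CPM for KCNH3 (-4.05, SE 0.26, adjusted p = 7.7e-08). KCNH4 had 0.646 to 4.64 against 10.2 to 22.9 CPM (-3.06, SE 0.30, adjusted p = 3.6e-06).

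InN-like nuclei were clustered again, without KCN-named features, into 5 types named from their markers, and 926 of the 2438 nuclei stayed unnamed. Among the unnamed were a cluster of 108 nuclei with 54.6% marked doublets and another of 23 nuclei with 56.5%. Both stayed in the InN-like class of the other comparisons, and their part there was not tested. The types held 113 nuclei (LAMP5-type) to 472 nuclei (SST-type), with 12 to 105 per library and type. For 6 of the 64 genes all libraries of the leading type lay above all of the next one by mean, against 0.842% of 30293 features, and these are given as levels with no test. KCNC1 was led by PVALB-type nuclei, known as fast-spiking, with 204 to 387 CPM (283 ± 65.5) against 58.1 to 157 CPM in VIP-type nuclei. KCNK2 (60.3 to 121 CPM, 99.3 ± 21.3) and KCNT2 (372 to 661 CPM, 471 ± 102) were both led by VIP-type nuclei. In LAMP5-type nuclei KCNK2 was at 0 in all 6 libraries and KCNT2 averaged 11.3 ± 15.8 CPM. LAMP5-type nuclei led for KCNN2 (427 to 643 CPM, 509 ± 71.9) and for KCNIP1 (700 to 871 CPM, 767 ± 65.5), the second against at most 567 CPM in any other type. KCNA3, a Kv1 subunit, was 72.7 to 121 CPM (100 ± 18.4) in SST-type nuclei and 11.6 to 53.4 CPM in VIP-type nuclei, while 1 PVALB-type value of 81.7 CPM and 1 LAMP5-type value of 84.9 CPM fell within the SST-type range.

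**Figure D3:**
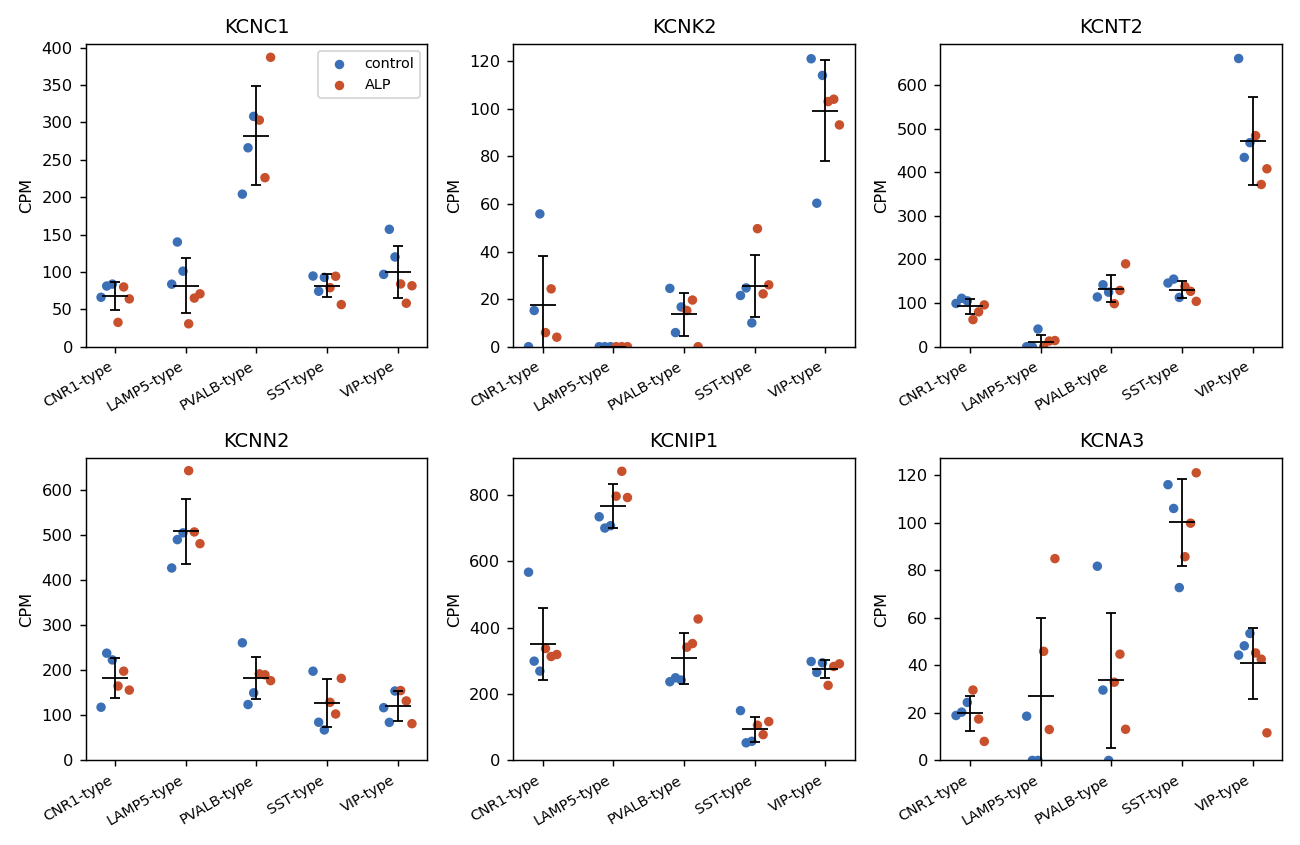
Points give the CPM (vertical axes) of 6 potassium channel genes in 5 types of InN-like nuclei (horizontal axes), 1 point per library (blue control, red ALP), with the mean and SD over 6 libraries. KCNC1 was highest in PVALB-type nuclei (283 CPM), KCNN2 and KCNIP1 in LAMP5-type nuclei (509 and 767 CPM).

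Within the oligodendrocyte lineage, mature-like nuclei had lower levels than precursors of most channel genes that could be tested. Of 32 genes tested, 21 were higher in OPC-like nuclei (65.6%, against 19.4% of 10705 genes) and 2 in Oligo-like nuclei (6.25%, against 13.3%), with a median of -1.83 against 0.08 for all genes. The 21 included both Kv2 and both Kv4 subunits, 4 of 5 Kv7 subunits and 3 of 4 EAG, ERG and ELK channels. A gene could pass the filter on low counts through its level in either class alone. With no such filter 31 of 64 members were called, as were 6975 of 44683 genes. Of the 64, 44 were then lower in Oligo-like nuclei, and the median was -0.64 against 0.10. Of 15 partner genes, 4 were higher in Oligo-like and 7 in OPC-like nuclei. The 2 genes higher in Oligo-like nuclei were KCNA6, with 116 to 268 against 1.99 to 18.8 CPM (4.30, SE 0.16, edgeR adjusted p = 7.9e-16), and KCNJ2, a strong inward rectifier. KCNJ2 had 7.25 to 20.1 against 0 to 9.96 CPM, and its groups overlapped (2.00, SE 0.31, adjusted p = 7.7e-06).

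KCNJ16, KCND2 and KCNIP1 differed most toward precursors. KCNJ16 had 0 to 1.96 CPM in Oligo-like and 17.6 to 59.8 CPM in OPC-like nuclei (-5.42, SE 0.33, edgeR adjusted p = 3.4e-12). KCND2 had 58.0 to 108 CPM against 3164 to 4903 CPM (-5.41, SE 0.12, adjusted p = 1.0e-18). KCNIP1 had 2.48 to 6.59 CPM against 102 to 171 CPM (-5.23, SE 0.19, adjusted p = 5.4e-16). In none of the 3 genes did the groups overlap, and the Kv4 subunit KCND2 and its KChIP partner KCNIP1 were low in the same mature-like nuclei.

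Granule-like and other excitatory nuclei differed in fewer genes. Of 42 genes tested, 8 were higher in Gran-like (19.0%, against 5.65% of 10818 genes) and 5 in non-granule excitatory nuclei (11.9%, against 7.49%), with medians of 0.18 and 0.01. Of 16 partner genes, 4 were higher in non-granule excitatory nuclei (DPP10, CNTNAP2 and ADAM23 among them) and none in Gran-like nuclei. KCNK13 had 89.7 to 143 CPM in Gran-like and 1.62 to 22.6 CPM in non-granule excitatory nuclei (4.19, SE 0.27, edgeR adjusted p = 3.8e-07). KCNT2 had 367 to 687 against 91.0 to 240 CPM (1.63, SE 0.16, adjusted p = 9.8e-06) and KCNA3 had 34.9 to 56.1 against 6.94 to 24.0 CPM (1.60, SE 0.19, adjusted p = 3.9e-05). In these 3 genes the groups did not overlap.

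In the other direction, the SK channel KCNN2 had a median of 25.0 and at most 38.9 CPM in Gran-like nuclei and 224 to 319 CPM in non-granule excitatory nuclei (-3.44, SE 0.18, edgeR adjusted p = 8.4e-08). KCNIP1 had 2.07 to 7.19 against 15.5 to 71.4 CPM (-3.76, SE 0.35, adjusted p = 5.7e-06). KCNS3 had 2.24 to 16.4 against 1.62 to 35.8 CPM, and these overlapped (-2.00, SE 0.39, adjusted p = 0.00188).

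ALP and control libraries were then compared within 8 classes, again with edgeR on UMIs summed per library, and a gene was called at an adjusted p under 0.05 over all genes and a log2 fold change beyond 0.25. For this comparison CPM are scaled by edgeR's TMM factors. The question was whether potassium channel genes moved with ALP, and 2 calls were made over all classes: KCNQ1 fell in Oligo-like nuclei and KCNJ16 rose in OPC-like nuclei. No partner gene was called in any class. Members were also counted where the groups did not overlap and the unadjusted p lay under 0.05. These were 3 of 22 in Micro-like nuclei (13.6%, against 8.95% of all genes) and 5 of 28 in Oligo-like nuclei (17.9%, against 15.1%). In every other class the share of members stayed near or below that of all genes. Few genes lie behind each share, and the difference from all genes was not tested.

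KCNQ1 was the 1 gene called of 28 tested in Oligo-like nuclei, where 4.91% of 11599 genes were called. It had 47.2, 40.9 and 63.7 CPM in control and 21.3, 22.3 and 17.9 CPM in ALP libraries, on 352 and 108 UMIs. All ALP values lay below all control values, and the log2 fold change was -1.36 (SE 0.25, edgeR adjusted p = 0.0175). The call was lost without control 3 (-1.15, adjusted p = 0.0858), without ALP 1 (-1.35, adjusted p = 0.0908) or without ALP 3 (-1.24, adjusted p = 0.122), where only 8, 1 and 3 of all genes were called. KCNQ1 did not pass in OPC-like nuclei, with 48.5, 38.3 and 62.6 against 25.8, 28.4 and 14.5 CPM (-1.15, SE 0.31, adjusted p = 0.0906), nor in Micro-like nuclei, with 559, 320 and 452 against 289, 269 and 265 CPM (-0.75, SE 0.22, adjusted p = 0.151). The 3 ALP values lay below the 3 control values in these classes as well. Over its 6 tested classes the log2 fold change of KCNQ1 was negative in each, from -1.36 to -0.11, with the same 6 animals behind every class.

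Most channel genes tested in Oligo-like nuclei had lower values in ALP. Of the 28, 26 had a negative log2 fold change (92.9%, against 49.6% of all genes tested), and the median was -0.44 against 0.00. Apart from KCNQ1 they did not pass the test one by one. With no filter on low counts 47 of 64 were lower and the median was -0.32, against -0.25 for 40153 genes. With DESeq2 the median was -0.33 against -0.35 over as many genes. Both settings also took in genes with few UMIs, and in them the median of the members lay near that of all genes. The median over all genes was negative in most other classes as well. With DESeq2 it ranged there from -0.29 in non-granule excitatory to 0.01 in Endo-like nuclei. The members' median in those classes ranged from -0.27 in Endo-like to 0.26 in Micro-like nuclei. Without overlap at an unadjusted p under 0.05 were 5 genes (17.9%), against 15.1% of all genes in either direction, and all 5 were lower in ALP: KCNQ1, KCNIP2, KCNIP4, KCNB2 and KCNS3. KCNIP2, a KChIP, had 19.6, 33.5 and 34.5 against 18.5, 7.78 and 13.3 CPM (-1.10, SE 0.36, edgeR adjusted p = 0.103). KCNIP4 had 99.8, 85.6 and 98.6 against 51.1, 44.1 and 70.5 CPM (-0.80, SE 0.21, adjusted p = 0.0519), and it was called without control 2 (-0.82, adjusted p = 0.047), as were 1030 of 12493 genes. KCNQ5 was called without control 1 (-1.37, adjusted p = 0.0238), as were 353 of 12358 genes. When each library was left out in turn, the median of the channel genes ranged from -0.76 without control 1 to -0.35 without control 3.

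Other values moved with this pattern. The summed neuronal transcripts in Oligo-like nuclei were 266 to 443 CPM in control and 241 to 283 CPM in ALP libraries, and 2 of the 6 were higher in ALP. Different clusters made up the class: clusters 3, 7 and 9, whose mean share was larger in control, held 57.6% to 88.2% of the Oligo-like nuclei of control libraries and 22.7% to 44.4% of ALP libraries, while clusters 4 and 6 held 11.1% to 41.9% and 54.3% to 76.0%. Their part in the lower channel levels was not tested.

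In OPC-like nuclei 1 of 28 genes was called, where 1.61% of 8781 genes were called. KCNJ16 had 17.8, 21.9 and 33.0 CPM in control and 64.6, 60.5 and 58.2 CPM in ALP libraries, on 76 and 115 UMIs. All ALP values lay above all control values (1.32, SE 0.29, edgeR adjusted p = 0.042). The call was lost with DESeq2 (1.36, adjusted p = 0.0617) and without control 1 (1.06, adjusted p = 0.0891), ALP 1 (1.31, adjusted p = 0.177), ALP 2 (1.33, adjusted p = 0.0819) or ALP 3 (1.38, adjusted p = 0.235). In Astro-like nuclei, the other class where it could be tested, KCNJ16 had 19.8, 58.3 and 56.2 against 67.3, 53.0 and 76.7 CPM and the groups overlapped (0.56, SE 0.35, adjusted p = 0.446). Including KCNJ16, 3 genes of OPC-like nuclei did not overlap at an unadjusted p under 0.05, against 11.3% of all genes, and the other 2 were KCNQ1 and KCNIP3. The summed neuronal transcripts there were 206 to 441 CPM in control and 232 to 306 CPM in ALP libraries.

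**Figure D4:**
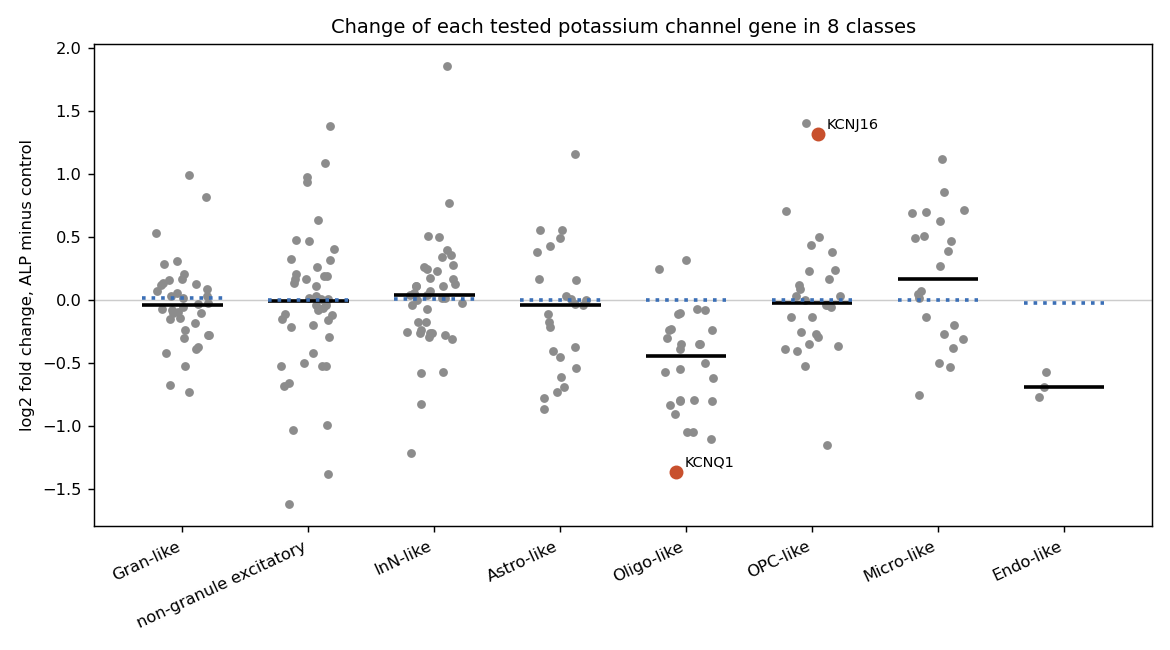
Each point is 1 tested potassium channel gene, with its log2 fold change of ALP against control (vertical axis) in 8 classes (horizontal axis), red where called, a black line at the median of the channel genes and a dotted line at the median of all genes tested. In Oligo-like nuclei the channel genes' median was -0.44 and KCNQ1 lay at -1.36, whereas KCNJ16 in OPC-like nuclei lay at 1.32.

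In neurons edgeR called no potassium channel gene between ALP and control. In non-granule excitatory nuclei 0 of 45 tested genes passed, as did 0% of 13461 genes (8 members and 2393 genes had an unadjusted p under 0.05). DESeq2 called 1 of 64 members, KCNQ5, and 325 of 42332 genes. KCNQ5 had 1024, 1065 and 1225 CPM in control and 326, 560 and 387 CPM in ALP libraries, with no overlap (-1.38, SE 0.23, edgeR adjusted p = 0.0992). With DESeq2 its log2 fold change was -1.32 (adjusted p = 9.4e-05), and with no upper limit on genes per nucleus it was -0.72 (edgeR adjusted p = 0.285). It also passed with no filter on low counts (-1.23, adjusted p = 7.8e-06, with 1135 of 42332 genes called) and without ALP 2 (-1.61, adjusted p = 0.0418, with 28 of 13501 called). Without control 1 it passed (-1.40, adjusted p = 0.0354) together with KCNIP1 (1.59, adjusted p = 0.0479), and 228 of 15113 genes were called. The clusters behind this class differed too, with cluster 19 holding 62.5% of the non-granule excitatory nuclei of control 3 and 4.70% to 22.4% in the other libraries, and their part in this difference was not tested.

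In the same class 6 genes did not overlap at an unadjusted p under 0.05, against 14.3% of all genes, and 2 of them were higher and 4 lower in ALP. KCNH3 had 18.3, 21.8 and 15.8 against 43.5, 26.9 and 39.1 CPM (0.98, SE 0.27, edgeR adjusted p = 0.135), and KCNA6 had 28.0, 10.9 and 21.4 against 10.7, 10.7 and 10.5 CPM (-0.99, SE 0.35, adjusted p = 0.193). KCNIP3 was the other gene that was higher.

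KCNIP3, a KChIP also described as calsenilin and as the transcription factor DREAM, had higher means in ALP in all 4 classes where it was tested and passed the test in none. With no filter on low counts it was called in InN-like nuclei (1.92, adjusted p = 0.00331). In InN-like nuclei it had 3.04, 6.11 and 2.50 CPM in control and 16.6, 7.75 and 17.5 CPM in ALP libraries (1.86, SE 0.48, edgeR adjusted p = 0.0781). In non-granule excitatory nuclei it had 3.86, 7.78 and 3.38 against 13.3, 9.67 and 13.5 CPM (1.38, SE 0.42, adjusted p = 0.151). In OPC-like nuclei it had 8.88, 8.20 and 4.35 against 21.5, 19.8 and 16.2 CPM (1.41, SE 0.43, adjusted p = 0.125). The groups did not overlap in these 3 classes, and did in Astro-like nuclei (1.16, SE 0.46, adjusted p = 0.23). The 4 classes share their 6 animals, and the UMIs behind a library's value ranged from 3 to 36.

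In InN-like nuclei 0 of 41 genes were called, as were 0% of 11943 genes (3 members and 2334 genes had an unadjusted p under 0.05, and DESeq2 called no member). KCNIP3 and KCNK1 did not overlap, against 15.7% of all genes. KCNK1, a leak channel of the TWIK family, had 15.2, 10.7 and 7.51 against 18.9, 16.5 and 21.6 CPM (0.77, SE 0.32, adjusted p = 0.227). Without control 1, KCNJ3 (0.64, adjusted p = 0.0462) and KCNK13 (-1.64, adjusted p = 0.0466) were called, 2 of 43 tested, as were 509 of 13061 genes. In Gran-like nuclei 0 of 38 genes were called by edgeR, where 1.21% of 10455 genes were. An unadjusted p under 0.05 was found for 2 members and 1883 genes, and DESeq2 called no member. There KCNA4 was the 1 gene without overlap, against 13.5% of all genes, with 31.0, 34.8 and 27.1 against 59.0, 49.5 and 71.3 CPM (0.99, SE 0.24, edgeR adjusted p = 0.0623), and without control 1 KCNT2 was called (0.59, adjusted p = 0.041), 1 of 39 tested, as were 446 of 10400 genes. Control 1 also differed in the clusters behind Gran-like nuclei. Cluster 20 held 26.8% of its Gran-like nuclei and 3.03% to 9.27% of those of the other libraries. The part of this cluster in the Gran-like values was not tested. Medians over the tested members were close to those of all genes, at -0.04 against 0.02 in Gran-like, -0.01 against 0.00 in non-granule excitatory and 0.04 against 0.01 in InN-like nuclei.

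In Astro-like nuclei 0 of 25 genes were called, where 0.187% of 10137 genes were (3 members and 1729 genes had an unadjusted p under 0.05, and DESeq2 called no member). KCNG2, a silent subunit, was the 1 gene without overlap, against 13.3% of all genes, with 42.0, 36.1 and 41.8 against 26.9, 23.6 and 16.8 CPM (-0.86, SE 0.27, edgeR adjusted p = 0.138). In Micro-like nuclei 0 of 22 genes were called by edgeR, where 0.368% of 6513 genes were. An unadjusted p under 0.05 was found for 7 members and 894 genes. DESeq2 called 1 of 63 members, and 23 of 32365 genes. Without control 2 and its 46 Micro-like nuclei, edgeR called 4 of 23: KCNQ1 (-0.88, adjusted p = 0.023), KCNIP4 (0.98, adjusted p = 0.0309), KCNH1, an EAG channel (1.45, adjusted p = 0.034), and KCNMA1 (0.93, adjusted p = 0.0449), with 297 of 7348 genes called. Without overlap were 3 genes, against 8.95% of all genes: KCNQ1, KCNIP4 and KCNT2.

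KCNIP4 in Micro-like nuclei had 746, 790 and 476 CPM in control and 1357, 990 and 1279 CPM in ALP libraries (0.86, SE 0.24, edgeR adjusted p = 0.13), the gene that DESeq2 called, and it turned to -0.68 with no upper limit on genes per nucleus. KCNT2 had 106, 91.6 and 60.6 against 187, 112 and 135 CPM (0.69, SE 0.28, adjusted p = 0.297). In Gran-like nuclei KCNIP4 and KCNT2 averaged 3748 and 512 CPM, against 831 and 102 CPM in Micro-like nuclei (CPM without TMM scaling). The summed neuronal transcripts in Micro-like nuclei were 1036 to 1158 CPM in control and 1213 to 1224 CPM in ALP libraries, without overlap, and 5 of the 6 were higher in ALP. The clusters behind this class differed too. Cluster 22, which also carried the granule markers PROX1, SEMA5A, TRPC6 and GLIS3, had 10.9% marked doublets. It held 6.92%, 19.6% and 4.88% of the Micro-like nuclei of control and 16.8%, 13.9% and 18.1% of ALP libraries. The part of this cluster and of the neuronal transcripts in the higher KCNIP4 and KCNT2 values was not tested. In Endo-like nuclei only KCND2, KCNIP4 and KCNH8 could be tested, 0 of 3 were called, as were 0% of 1534 genes (0 members and 92 genes had an unadjusted p under 0.05, and DESeq2 called no member), and none was without overlap, against 3.98% of all genes.

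**Figure D5:**
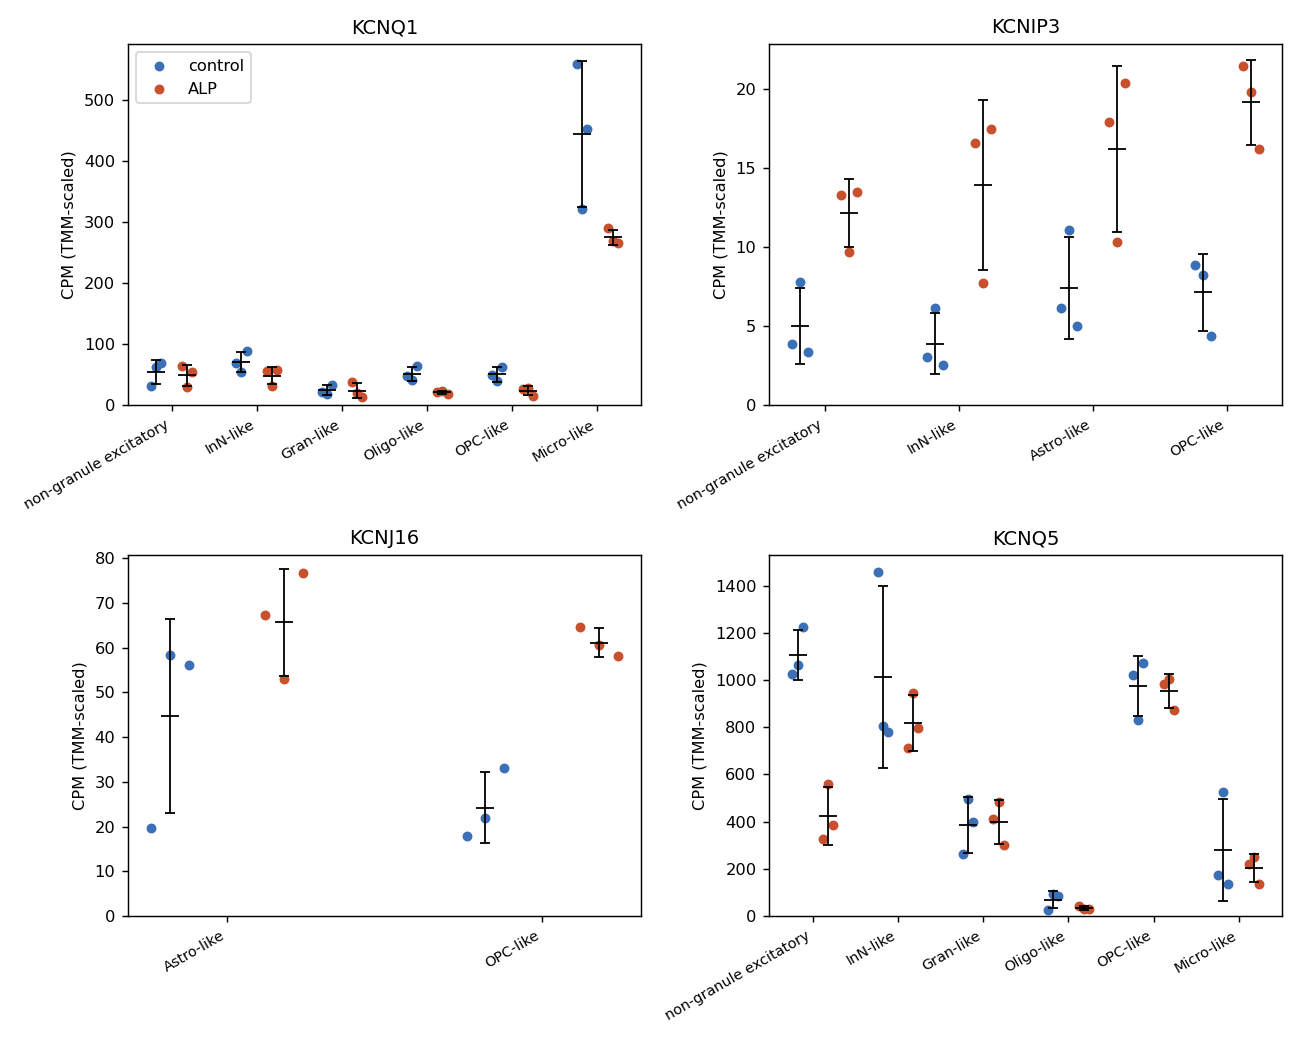
Points give the TMM-scaled CPM (vertical axes) of KCNQ1, KCNIP3, KCNJ16 and KCNQ5 in classes where each was tested (horizontal axes), 1 point per library (blue control, red ALP), with the mean and SD of each group of 3. KCNQ1 in Oligo-like nuclei was 40.9 to 63.7 CPM in control and 17.9 to 22.3 CPM in ALP libraries, and KCNJ16 in OPC-like nuclei 17.8 to 33.0 and 58.2 to 64.6 CPM.

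Whether the change with ALP differed between neurons and glia was tested as an interaction over the summed classes. None of 58 members was called by edgeR, as were 0% of 20823 genes, while 8 members and 1653 genes had an unadjusted p under 0.05. The smallest adjusted p among the members was 0.451, for KCNS3, whose log2 fold change in neurons exceeded that in glia by 0.88 (SE 0.28).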

How the data were processed

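The authors deposited raw UMI counts per gene and barcode for each of 6 libraries (10x 3′ v3.1 chemistry), and no normalized values. The submitters' processing notes name Cell Ranger 3.1.0, whereas the matrix headers name version 6.1.2. Reads were mapped to the TreeshrewDB annotation, and its build and the use of strand and introns are not given in the sources used here. Every column was mapped to a sample.

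Nuclei with more than 200 and fewer than 2500 genes and under 5% mitochondrial UMIs were kept. They were clustered with scanpy 1.11.5 and leidenalg 0.10.2 on 2000 variable genes without KCN-named features, and clusters were named where at least 3 markers were found. Simulated doublets marked 1.43% to 5.10% of kept nuclei per library, and these were kept (removed as an alternative). Sums of UMIs were formed for each class within a library (10 or more nuclei), with totals of 46485 to 3634044 UMIs for a library in the 8 classes tested for ALP, so that counts of a few UMIs carry large counting error.

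Tests used the quasi-likelihood test of edgeR 4.0.16 (TMM, minimum count 10, Benjamini-Hochberg over all genes) in R 4.3.3. ALP contrasts had no covariate, since sex is not given per library, and cell type contrasts had library as a block. In cell type contrasts a gene could pass the filter on low counts through either side alone. The scripts were tested on simulated data. Alternatives were DESeq2 1.42.0, upper-quartile factors, no filter on low counts, a replicate block, each library left out, no upper limit on genes, marked doublets removed, and KCN-named features kept in clustering.

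Members, gene lists and markers were chosen with earlier results of these data known, and thresholds for naming clusters were set after seeing the data. Genes named in the text were every called member in ALP contrasts, per class the 2 largest rises and falls with an unadjusted p under 0.05 and no overlap, the member with most UMIs per family, per class the 2 members with the largest ratio to the next class (at least 100 UMIs), and the 3 largest differences per direction in cell type contrasts. Others were named after their values were seen, and a few items that the rule names are not reported here.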

Additional observations from a re-analysis of the deposited data

Results flagged for a closer look

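In 2 genes every ALP library lay above every control library in one class and below in another. For KCNIP4, the log2 fold change was -0.80 in Oligo-like and 0.86 in Micro-like nuclei, a difference of -1.66. For KCNT2, it was -0.52 in non-granule excitatory and 0.69 in Micro-like nuclei, a difference of -1.21. The 2 genes were picked for these opposite directions, and how many of all genes show the same was not counted. Of all genes, 15.1% in Oligo-like, 14.3% in non-granule excitatory and 8.95% in Micro-like nuclei were without overlap at an unadjusted p under 0.05. Neither difference was itself tested, and KCNIP4 in Micro-like nuclei turned to -0.68 with no upper limit on genes per nucleus.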

How the results depend on the processing

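Of 156 values under an alternative that answer a comparison, mostly counts of called members, 130 stayed within 1.5 times the reported value. Many of these were counts of 0 that stayed at 0. In Oligo-like and OPC-like nuclei, where 1 member each was called between ALP and control, the count ranged from 0 to 2. Leaving out each library in turn gave 0 to 1 called members in Gran-like and in OPC-like nuclei, 0 to 2 in non-granule excitatory, InN-like and Oligo-like nuclei, and 0 to 4 in Micro-like nuclei. With no filter on low counts, calls rose among all genes as well as members, with 1 member in Gran-like (757 of 39542 genes), 5 in non-granule excitatory (1135 of 42332), 3 in InN-like (1434 of 41112) and 2 in OPC-like nuclei (545 of 37432), 20 between Gran-like and non-granule excitatory nuclei (3144 of 46411), and 1 in the interaction (200 of 54207). DESeq2 called 1 member in non-granule excitatory (325 of 42332 genes), 0 in OPC-like (100 of 37432) and 1 in Micro-like nuclei (23 of 32365). Upper-quartile factors gave 2 in Oligo-like nuclei (577 of 11599). With no upper limit on genes 21 members were called between Gran-like and non-granule excitatory nuclei, while all calls rose from 1421 of 10818 to 3002 of 17040 genes. KCNIP4 in Micro-like nuclei then reversed to -0.68, and the median of the tested members there went from 0.17 (22 genes) to -0.50 (15 genes). The class changed as well, since a cluster of 1112 nuclei with microglial and granule markers (17.8% marked doublets) was left unnamed. The cause of these differences was not tested.

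The titles share replicate numbers, but same-numbered libraries did not deviate together: in no class did all 3 pairs correlate above 0.1, so the numbers were not taken as pairs. With a replicate block, OPC-like nuclei had 0 called members (KCNJ16, 1.35, adjusted p = 0.128) and 1 called gene instead of 141, Gran-like nuclei 0 genes instead of 127, Micro-like nuclei 0 instead of 24, Astro-like nuclei 6 instead of 19 and Oligo-like nuclei 236 instead of 569, while KCNQ1 in Oligo-like nuclei passed (-1.34, adjusted p = 0.0458).

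For named genes, 450 of 473 values under an alternative kept their direction and side of the threshold, and 9 lost and 11 gained a call. The lost calls lay in the ALP contrasts. There KCNQ1 in Oligo-like nuclei was called in 10 of 13 alternatives and KCNJ16 in OPC-like nuclei in 7 of 13. The highest class was the same for 55 of 64 genes with no upper limit and for 62 with KCN-named features kept. Classes with few nuclei, and members with few UMIs, limit what could be detected: only 3 members could be tested in Endo-like nuclei, and 12 were tested in no ALP contrast.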
